A study of Sus scrofa with 12 samples.

Results

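SRRM2, SNRNP70, LUC7L3, CCNL1, SRSF11 and SF3B1 encode proteins of the nuclear speckle and the spliceosome, and their transcripts were followed across 12 libraries of polyadenylated RNA from pig heart. They are 6 of the 516 genes in the authors' deposited table. The table holds genes with an unadjusted p under 0.05 between the groups, and the 6 genes were picked from it by name, with earlier results of these data known. Their difference between the groups is therefore described below without a test. The questions put to them are how far they differed between the groups, whether the difference was the same among replicates 4 to 6 and among replicates 1 to 3, and how closely they moved with each other from library to library.

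The study examined the heart in left ventricular pressure overload (LVPO), in which the ventricle ejects against a raised resistance. In the 6 pressure overload libraries, the animals had a cuff on the ascending aorta that was closed in steps, and hearts were taken at 5 weeks of overload. The 6 control libraries came from referent animals matched for age and weight. The series text counts 9 overloaded and 6 control pigs. No strain, sex or age is given, and the labels do not say that each library came from a different animal, so the errors and p-values below measure the spread between libraries. The labels give the tissue as heart. None of the 12 cardiomyocyte markers looked for was in the table, so that label could not be checked here.

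Introns are removed from new transcripts by the spliceosome, a machine of small nuclear ribonucleoproteins (snRNPs) and many accessory proteins. The U1 snRNP recognises the start of an intron and the U2 snRNP recognises its branch point. Serine/arginine-rich (SR) proteins help to mark exons, and many of these factors gather between rounds of work in nuclear speckles, which are compartments held around large SR-related scaffold proteins. SR protein kinases and cyclin-dependent kinases phosphorylate these factors and link splicing to transcription. In cardiac muscle, alternative splicing sets the isoforms of sarcomeric and ion-handling proteins.

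All 6 transcripts were lower on average in the pressure overload libraries, with ratios of means, pressure overload over control, from 0.632 for SNRNP70 to 0.768 for SF3B1. The difference was uneven. Among replicates 4 to 6 every member was lower in each pressure overload library than in each control library, as were 56.6% of the 516 rows, with ratios of means from 0.428 for SNRNP70 to 0.596 for SF3B1. Among replicates 1 to 3 the ratios lay between 0.846 for LUC7L3 and 1.03 for SRRM2, and the libraries of the groups overlapped for every member, while 20.2% of the rows were lower without overlap. The 6 transcripts also shared their highest libraries: pressure overload replicate 3 was the highest of its group for all 6, and control replicate 5 was the highest of its group for all 6.

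**Figure D1:**
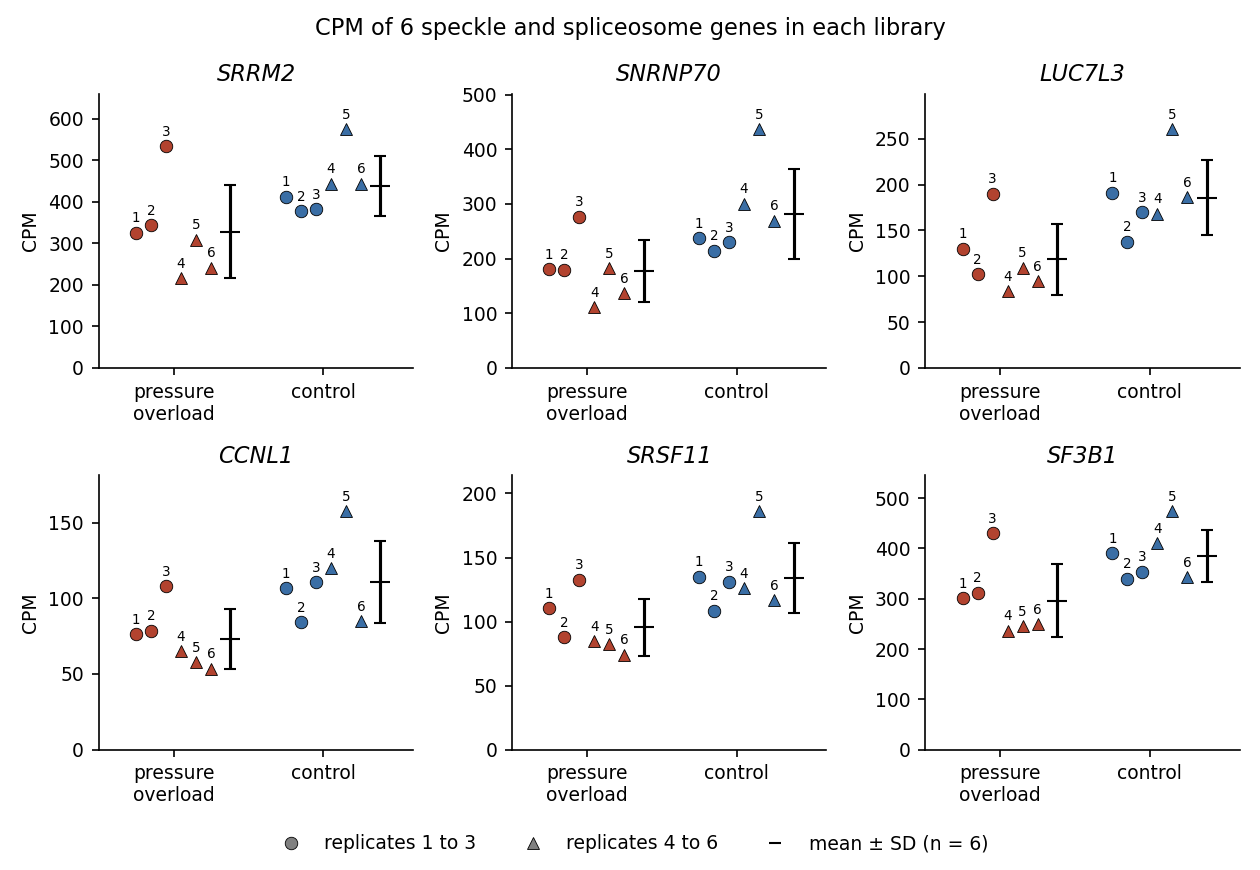
Abundance of the 6 transcripts in CPM (reads of the gene per 1 M reads of the library, vertical axis) in each pressure overload library (left) and control library (right). Numbers are replicates, circles are replicates 1 to 3, triangles are replicates 4 to 6, and bars give the mean ± SD of 6 libraries. Pressure overload replicate 3 lies among the controls in every panel, and pressure overload replicates 4 to 6 lie under all control triangles.

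Values are in CPM, which is not scaled to transcript length, so levels are compared between libraries and not between genes. Libraries held 26.3 M reads on average (SD 3.51, n = 12, range 19.5 to 31.9 M), as recovered from the steps between CPM values. The smallest value of a member rests on 1300 reads and the largest on 16138 reads, so counting error is small beside the spread between libraries. In bulk tissue, fewer cells of a type and less RNA per cell cannot be told apart.

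SNRNP70 encodes U1-70K, a protein of the U1 snRNP that binds U1 RNA and contacts SR proteins. It was measured between 111.2 and 276.4 CPM in pressure overload libraries, with a median of 180.1 CPM, against 214.5 to 436.6 CPM in controls, with a median of 253.0 CPM. In 5 of 6 pressure overload libraries it was below every control, and only replicate 3, at 276.4 CPM, was within the control range. The means were 177.8 ± 56.4 CPM in pressure overload and 281.3 ± 82.0 CPM in controls (SD, n = 6 each), a ratio of 0.632. Among replicates 4 to 6 SNRNP70 averaged 143.4 ± 36.1 CPM in pressure overload and 335.3 ± 89.1 CPM in controls (SD, n = 3 each). Among replicates 1 to 3 the means were 212.2 ± 55.6 CPM in pressure overload and 227.3 ± 11.6 CPM in controls. Its controls were thus higher in replicates 4 to 6 than in replicates 1 to 3, while its pressure overload libraries were lower there. The gene lies at chr6:54288354-54304272 of Sscrofa11.1 in RefSeq and overlaps NTF4. Its value is uncertain to that extent, because no source used here gives the strand setting of the authors' counting.

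LUC7L3 encodes a homologue of yeast Luc7, a U1 snRNP-associated protein that takes part in choosing the start of the intron. It ranged from 83.7 to 190.0 CPM in pressure overload, with a median of 105.9 CPM, against 137.8 to 260.4 CPM in controls, with a median of 178.2 CPM. As for SNRNP70, pressure overload replicate 3 was the only library of its group inside the control range. The means were 118.4 ± 38.4 CPM in pressure overload and 185.7 ± 41.1 CPM in controls (SD, n = 6 each), a ratio of 0.638. Among replicates 4 to 6 they were 96.0 ± 12.96 CPM in pressure overload and 205.0 ± 48.8 CPM in controls. Among replicates 1 to 3 they were 140.8 ± 44.8 CPM in pressure overload and 166.3 ± 26.8 CPM in controls. The difference in replicates 1 to 3 was within the SD of the pressure overload libraries. The gene lies at chr12:27004894-27032156, and no other RefSeq gene overlaps it.

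The ratio of SNRNP70 to LUC7L3 was 1.51 ± 0.167 in pressure overload and 1.51 ± 0.203 in controls (SD, n = 6 each). The levels of these U1-linked transcripts thus differed between the groups by nearly the same factor. Against SF3B1, taken as a transcript of the U2 snRNP, both were lower by a little more than the SD of either group, and no test was made. The ratio of SNRNP70 to SF3B1 was 0.596 ± 0.092 in pressure overload and 0.721 ± 0.118 in controls, and that of LUC7L3 to SF3B1 was 0.397 ± 0.050 in pressure overload and 0.480 ± 0.062 in controls. The lower ratio was not particular to the U1-linked transcripts. That of CCNL1, a speckle cyclin, to SF3B1 was 0.246 ± 0.020 in pressure overload and 0.284 ± 0.034 in controls. For SRRM2 and SRSF11 the ratio to SF3B1 differed by less than the SD of either group. These ratios are of CPM values and are not molar ratios.

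SF3B1 encodes the largest subunit of the SF3b complex of the U2 snRNP, which holds the snRNP on the branch point. It ranged from 236.8 to 430.5 CPM in pressure overload, with a median of 275.3 CPM, against 339.5 to 474.3 CPM in controls, with a median of 372.2 CPM. All pressure overload libraries but replicate 3 were below every control. The means were 296.0 ± 72.9 CPM in pressure overload and 385.2 ± 52.0 CPM in controls (SD, n = 6 each), the smallest proportional difference of the 6, with a ratio of 0.768. Pressure overload replicates 4 to 6 were close to each other, at 244.0 ± 6.54 CPM, against 409.2 ± 65.8 CPM in the controls of the same numbers. Replicates 1 to 3 averaged 347.9 ± 71.7 CPM in pressure overload and 361.3 ± 26.3 CPM in controls. The gene lies at chr15:101274968-101338018 and overlaps COQ10B, with the same uncertainty as for SNRNP70.

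SRRM2 encodes a very large SR-related protein that serves as a core scaffold of nuclear speckles. It ranged from 216.3 to 533.5 CPM in pressure overload, with a median of 316.9 CPM, against 377.2 to 574.6 CPM in controls, with a median of 427.8 CPM. Replicate 3 of pressure overload, at 533.5 CPM, was above 5 of 6 controls, and the other 5 pressure overload libraries were below them all. The means were 328.1 ± 112 CPM in pressure overload and 438.9 ± 72.4 CPM in controls (SD, n = 6 each), a ratio of 0.748. SRRM2 was the only member whose mean among replicates 1 to 3 was not lower in pressure overload. Replicates 4 to 6 averaged 255.5 ± 47.6 CPM in pressure overload and 487.3 ± 75.6 CPM in controls, a ratio of 0.524. Replicates 1 to 3 averaged 400.8 ± 115 CPM in pressure overload and 390.6 ± 19.0 CPM in controls, a ratio of 1.03. The gene lies at chr3:39275274-39293741, and no other RefSeq gene overlaps it.

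SRSF11 encodes an SR protein of the nucleus that is found with the spliceosome and in speckles. It ranged from 74.0 to 132.8 CPM in pressure overload, with a median of 86.3 CPM, against 108.4 to 186.3 CPM in controls, with a median of 128.6 CPM. It was the only member for which more than a single pressure overload library reached the control range: replicate 1, at 110.5 CPM, and replicate 3, at 132.8 CPM, did. The means were 95.4 ± 22.0 CPM in pressure overload and 133.9 ± 27.4 CPM in controls (SD, n = 6 each), a ratio of 0.712. Among replicates 4 to 6 they were 80.3 ± 5.62 CPM in pressure overload and 143.0 ± 37.8 CPM in controls. Among replicates 1 to 3 they were 110.4 ± 22.4 CPM in pressure overload and 124.9 ± 14.4 CPM in controls. The gene lies at chr6:142621904-142668107, and no other RefSeq gene overlaps it.

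CCNL1 encodes cyclin L1, a speckle cyclin with an SR domain that partners CDK11 kinases and acts on splicing. It ranged from 53.4 to 108.0 CPM in pressure overload, with a median of 70.5 CPM, against 84.2 to 157.7 CPM in controls, with a median of 108.6 CPM. Its pressure overload replicate 3, at 108.0 CPM, was near the control median, and its other 5 pressure overload libraries were below all controls. The means were 73.1 ± 19.8 CPM in pressure overload and 110.6 ± 27.1 CPM in controls (SD, n = 6 each), a ratio of 0.661. Among replicates 4 to 6 they were 58.7 ± 5.81 CPM in pressure overload and 120.7 ± 36.5 CPM in controls. Among replicates 1 to 3 they were 87.6 ± 17.7 CPM in pressure overload and 100.5 ± 14.2 CPM in controls. The gene lies at chr13:96984542-97004401 and overlaps VEPH1 and an uncharacterised lncRNA locus, so its value carries the same uncertainty.

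The authors' deposited table gives log2 fold changes of -0.66 for SNRNP70, -0.65 for LUC7L3, -0.60 for CCNL1, -0.49 for SRSF11, -0.42 for SRRM2 and -0.38 for SF3B1. The unadjusted p in the authors' deposited table, by which the rows were selected, ran from 0.00546 for SNRNP70 to 0.0401 for SRRM2, the member nearest to the threshold. Its adjusted p was 0.895 for SNRNP70 and 1 for each of the other 5, so none of the 6 passed the authors' own correction. The adjusted values imply that 15235 genes were tested, of which 516 (3.39%) are in the table, 375 of them (2.46%) lower in pressure overload. The row of the table nearest to the threshold is DLL4, with an unadjusted p of 0.04997 in the authors' deposited table. Genes outside it were not analysed here.

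On the log2(CPM + 1) scale, where limma was fitted over the 512 rows with at least 1 CPM in at least 6 libraries, the member differences, pressure overload minus control, had a median of -0.54, beside -0.41 over all 512 rows. They were -0.67 ± 0.20 for SNRNP70, -0.67 ± 0.18 for LUC7L3, -0.60 ± 0.18 for CCNL1, -0.49 ± 0.16 for SRSF11, -0.47 ± 0.18 for SRRM2 and -0.40 ± 0.15 for SF3B1 (SE, n = 6 each). The 6 genes thus stood a little lower than the typical row of a table whose rows are mostly lower. Rescaling the libraries by the median of ratios of the listed rows moved the median of all rows up by 0.31, to -0.10, and that of the members to -0.22. The median of the members minus that of all rows was -0.12 then and -0.13 without rescaling. All 6 members were negative under both, but some were near 0 after this rescaling. The differences were then -0.08 ± 0.11 for SF3B1, -0.14 ± 0.13 for SRRM2 and -0.17 ± 0.12 for SRSF11 (SE). For the others they were -0.27 ± 0.14 for CCNL1 and -0.35 for both LUC7L3 (SE 0.14) and SNRNP70 (SE 0.15).

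None of the 6 had groups that did not overlap over all 12 libraries, whereas 39 of the 516 rows (7.56%) were lower without overlap. Without pressure overload replicate 3, 5 of 6 members did not overlap, SRSF11 being the exception, beside 26% of the 516 rows. That library was the highest of its group for all 6 members, so leaving it out favours them, and their count and the share of rows are not a like comparison. The ratios of means without that library lay between 0.561 for LUC7L3 and 0.698 for SF3B1. The shares given above for the replicate sets are 292 of 516 rows among replicates 4 to 6 and 104 of 516 rows among replicates 1 to 3, beside 6 of 6 and 0 of 6 members. The rows were selected on the contrast that these counts describe.

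The contrast between the replicate sets was next tested as the interaction of group and replicate set, that is, the difference in replicates 4 to 6 minus the difference in replicates 1 to 3. In the balanced layout of 3 libraries per set and group, the interaction is not the quantity on which the rows were selected. The split was, however, made with results of these data known, so the p-values are not independent support. The sources do not call the sets batches. All 6 interactions were negative, as were those of 364 of 512 rows (71.1%). The members' values were -1.09 ± 0.32 for SNRNP70, -0.94 ± 0.28 for SRRM2, -0.80 ± 0.32 for LUC7L3, -0.78 ± 0.30 for CCNL1, -0.66 ± 0.23 for SF3B1 and -0.61 ± 0.27 for SRSF11 (log2, SE). None passed limma's adjusted p under 0.05, with values of 0.122 for SNRNP70 and SRRM2 up to 0.193 for SRSF11. No row of the table passed either (0 of 512, 0%), and the smallest adjusted p of any row was 0.0688.

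At an unadjusted limma p under 0.05 the interaction was negative for 6 of 6 members and for 113 of 512 rows (22.1%). An exact two-sided permutation of the replicate sets within each group, with 400 assignments, gave p = 0.005 for SRRM2, the smallest the layout allows. The exact p was 0.015 for SNRNP70 and for SF3B1, p = 0.04 for CCNL1, p = 0.055 for LUC7L3 and p = 0.08 for SRSF11. These 6 exact values are unadjusted. The members' median interaction was -0.79, beside -0.33 over all 512 rows. After median-of-ratios rescaling it was -0.43, beside 0.01 over all rows.

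**Figure D2:**
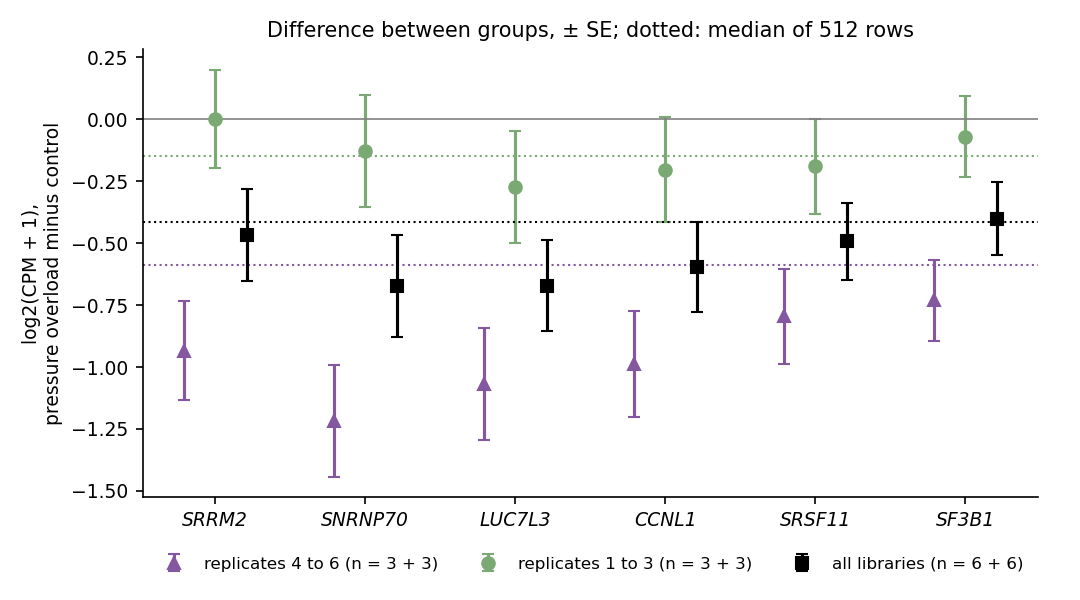
Difference in log2(CPM + 1), pressure overload minus control, for each transcript (horizontal axis) in replicates 4 to 6, in replicates 1 to 3 and in all libraries, with limma SE as bars. Dotted lines give the median of 512 rows in the matching colour. The points of replicates 4 to 6 lie between -1.22 and -0.73 and those of replicates 1 to 3 between -0.27 and 0.00.

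The sets differed with opposite signs in pressure overload and in controls. Within pressure overload, the difference of replicates 4 to 6 minus replicates 1 to 3 was -0.63 for SRRM2, -0.56 for SNRNP70 and CCNL1, -0.51 for LUC7L3, -0.49 for SF3B1 and -0.44 for SRSF11. At an unadjusted limma p under 0.05 this was lower for 6 of 6 members and for 83 of 512 rows (16.2%), while limma's adjusted p was 0.189 to 0.216 for the members. Within controls, the same difference was 0.53 for SNRNP70, 0.31 for SRRM2, 0.29 for LUC7L3, 0.23 for CCNL1 and 0.17 for SRSF11 and SF3B1, and limma's adjusted p was 0.438 to 0.690. SNRNP70 alone had an unadjusted limma p under 0.05 there. The medians were -0.53 for the members and -0.23 for all rows within pressure overload, and 0.26 for the members and 0.13 for all rows within controls.

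Individual libraries shaped these values. Relative to its group mean, the mean of the 6 transcripts was 0.64 log2 units higher in pressure overload replicate 3, and the median of all rows was 0.20 higher in that library. Control replicate 5 was 0.49 higher for the members and 0.15 higher for all rows. At the low end, pressure overload replicate 4 deviated by -0.36 and replicate 6 by -0.32 for the members, with -0.17 and -0.14 for all rows. Control replicate 2 was the lowest control for all 6 members and deviated by -0.29. The members thus deviated in the direction of the whole table in these libraries, and by more.

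The members' median log2 difference was -0.67 without pressure overload replicate 3, -0.44 without control replicate 5 and -0.57 without both. The median interaction was -0.59 both without pressure overload replicate 3 and without control replicate 5.

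**Figure D3:**
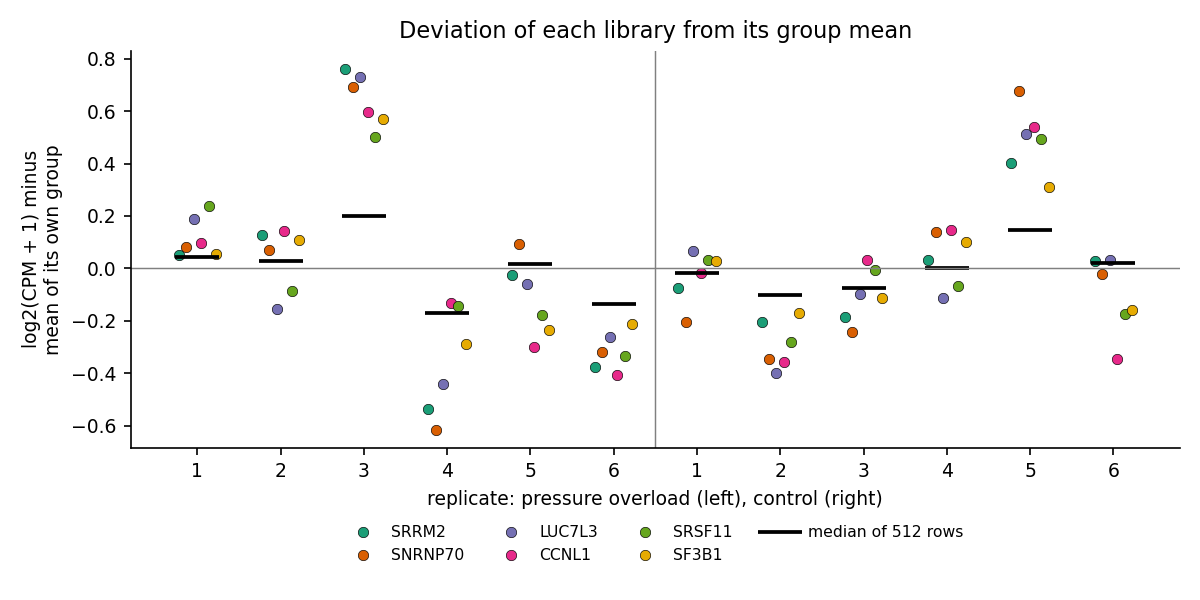
Deviation of each library from the mean of its own group in log2(CPM + 1) (vertical axis), with a coloured point for each transcript and a black bar for the median of 512 rows. Pressure overload replicates are on the left and control replicates on the right. All 6 transcripts are above the black bar in pressure overload replicate 3 and control replicate 5.

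Within each group the 6 transcripts followed each other across libraries. Over the 15 pairs in the 6 pressure overload libraries, Pearson's r of log2(CPM + 1) had a median of 0.903 (0.763 to 0.984) and Spearman's rho a median of 0.771 (0.486 to 0.943). Over the 6 control libraries the median r was 0.855 (0.754 to 0.984) and the median rho 0.771 (0.486 to 1). The closest pair in either group was SRRM2 and SNRNP70, the speckle scaffold and the U1 protein, with r = 0.984 in both. In pressure overload, the widest pair was SNRNP70 and CCNL1, with r = 0.763, and in controls it was SRRM2 and CCNL1, with r = 0.754. With exact permutation p-values adjusted by Benjamini-Hochberg over the 30 relations, 11 of 15 pairs passed 0.05 in pressure overload (adjusted p 0.0333 to 0.0819) and 8 of 15 in controls (0.0333 to 0.0861). The 6 genes were proposed for this comparison with results of these data known, so these p-values are not independent support. Of all pairs of rows, 14.7% in pressure overload and 9.71% in controls had an r at or above that of the lowest member pair, as had 22.8% in pressure overload and 15.4% in controls of the pairs of lower rows. By rho none of the member pairs passed in either group, with adjusted exact p from 0.10 in pressure overload and from 0.0833 in controls.

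These correlations rest in part on the libraries at the ends. After the 2 libraries farthest from the median of the first gene of each pair were left out, the median r over the remaining 4 was 0.665 in pressure overload (0.413 to 0.944), with 3 of 15 pairs under 0.5. In controls it was 0.144 (-0.685 to 0.877), with 11 of 15 pairs under 0.5. In controls, then, most of the pairs rest on those libraries. SRRM2 and SNRNP70 were the pair that held most firmly, at r = 0.944 in pressure overload and 0.877 in controls over 4 libraries. CCNL1 and SF3B1 also remained together, at 0.902 in pressure overload and 0.772 in controls.

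**Figure D4:**
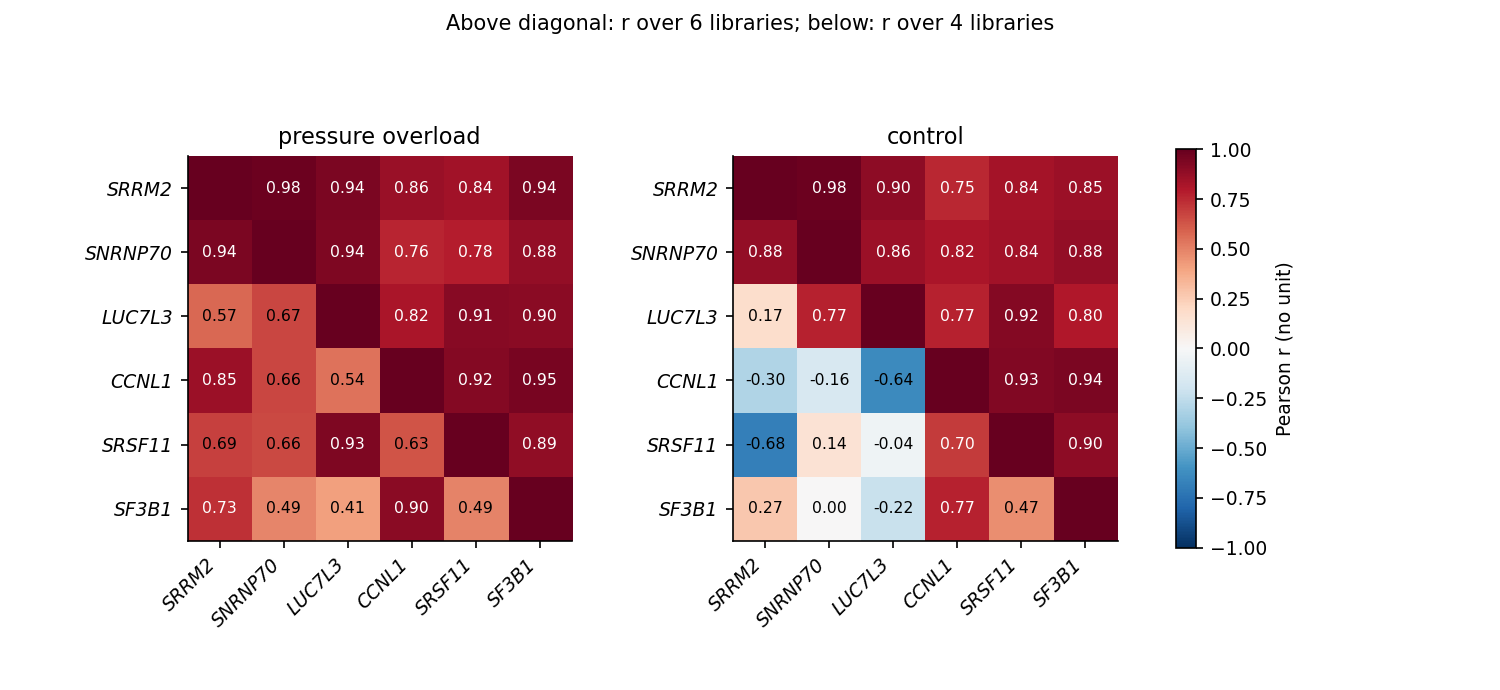
Pearson's r between each pair of transcripts in the pressure overload libraries (left) and the control libraries (right), on a colour scale from -1 to 1. Above the diagonal r is over 6 libraries, and below it over the 4 that remain without the 2 farthest from the median of the gene in the column. The lower triangle stays between 0.41 and 0.94 in pressure overload and reaches -0.68 in controls.

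Pooled over the 12 libraries after each group mean was subtracted, the 15 pairs had a median r of 0.872 (0.786 to 0.954). The median was 0.10 over all 130816 pairs of rows and 0.306 over pairs of the 374 lower rows that were fitted. Of all pairs, 4.66% reached the lowest member pair, as did 8.35% of pairs of lower rows. These are descriptions, as pairs share libraries, depth and normalization. After the means of replicates 1 to 3 and 4 to 6 were subtracted within each group, the median r was 0.810 for the members and 0.068 over all pairs. The members thus also varied together inside the replicate sets, with pressure overload replicate 3 and control replicate 5 still included. Their lowest pair was then at 0.593, which 12.4% of all pairs and 19.5% of pairs of lower rows reached. Without pressure overload replicate 3 and control replicate 5 together, the median r of the members over 10 group-centred libraries was 0.649 (0.368 to 0.945).

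A single component held 89.1% of the variance of the 6 group-centred transcripts and the next held 5.91%. The SD of a member within groups was 0.264 to 0.409 on the log2 scale, and 0.101 to 0.149 after the mean of the 6 was subtracted in each library. The member mean was set beside library size and beside ND6, a gene of the mitochondrial genome, within each group. With library size r was 0.331 in pressure overload (rho 0.543, exact permutation p = 0.507) and 0.282 in controls (rho 0.429, p = 0.661). With ND6, r was 0.532 in pressure overload (rho 0.714, exact permutation p = 0.261) and 0.222 in controls (rho 0.543, p = 0.649). All 4 had an adjusted p of 0.661. With the 2 farthest libraries left out, r with library size was 0.882 in pressure overload and 0.268 in controls, and r with ND6 was 0.343 in pressure overload and 0.235 in controls.

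Of the 5 rows that tracked the 6 genes most closely, 3 were in the splicing lists. Over the 12 group-centred libraries, the highest r with the member mean was 0.991 for PNN, or pinin, an SR-related speckle protein, followed by 0.979 for ARGLU1, an arginine- and glutamate-rich splicing cofactor. LRRC45, a centrosome protein, had r = 0.959, TTC14 had r = 0.952, and CCNL2, the paralogue of CCNL1, had r = 0.951. Their log2 differences, pressure overload minus control, were -0.41 ± 0.15 for PNN, -0.40 ± 0.13 for ARGLU1, -0.63 ± 0.22 for LRRC45, -0.46 ± 0.15 for TTC14 and -0.46 ± 0.19 for CCNL2 (SE, n = 6 each). CCNL1 and CCNL2 are paralogues, and no source used here says how the counting treated reads shared between paralogues. Across the 506 other fitted rows the median r with the member mean was 0.382, and 38 rows were at 0.9 or above. Among 24 other splicing genes in the table the median was 0.852, with 8 at 0.9 or above.

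Around the 6 members, 11 lists of splicing genes, written with earlier results of these data known, hold 245 genes, of which 30 (12.2%) were in the authors' deposited table, beside 3.39% of the 15235 genes tested. The list genes could not be checked against the genes tested, so the 12.2% and 3.39% have unlike denominators. Of the 30 genes, 28 were lower and 2 higher in pressure overload, which is 93.3% lower beside 72.7% of all rows. In the authors' deposited table, their log2 fold changes had a median of -0.42, as had those of all 516 rows. Over the 375 lower rows alone the median was -0.51. No test was made between the lists and the table. Without the 6 members, 22 of 24 were lower.

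The counts of each list are given next as descriptions, with no test between lists. For all genes tested, 3.39% were in the table and 2.46% were in it as lower. The list counts are out of all genes written in a list, whether or not they were tested. The SR-related and speckle scaffold list had 7 of 31 genes in the table, all lower. Beside SRRM2 they were SRRM1, a splicing coactivator of the same family, at -0.37 on the log2 fold-change scale of the authors' deposited table, PNN at -0.40, RSRP1 at -0.53, ARGLU1 at -0.40, the helicase DDX46 at -0.35 and AKAP17A at -0.57. The list of U1 snRNP and LUC7-like proteins had 4 of 12. Beside SNRNP70 and LUC7L3 they were PRPF40B, which binds U1 and branch-point proteins, at -0.59 in the authors' deposited table, and RBM25, a U1-associated splicing regulator, at -0.43.

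Regulators of phosphorylation were also present. The kinases CLK1, CLK2, CLK3 and CLK4, which phosphorylate SR proteins and release them from speckles, were at -0.59, -0.48, -0.39 and -0.45 on the same scale of the authors' deposited table and made up 4 of 10 of their list. In the list of cyclin L and transcription-linked kinases, 4 of 10 were present: CCNL1, CCNL2 at -0.44, and the P-TEFb cyclins CCNT1 at -0.51 and CCNT2 at -0.31, again from the authors' deposited table. All were lower in pressure overload.

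Fewer genes of the other lists were in the table, some of them at shares near the 3.39% of all genes tested. SF3B1 was the only gene present of 23 in the U2, SF3 and U2AF list, and SRSF11 the only SR protein of 14. The tri-snRNP and Sm/LSm list had 2 of 33 in the authors' deposited table. They were SNRNP48, a snRNP protein of neither class, at -0.41 and SART3, a snRNP recycling factor, at -0.34. The list of the PRPF19 complex and step factors had 0 of 27. The exon junction and mRNA export list had 2 of 21 in the authors' deposited table, THOC1 at -0.45 and the helicase DDX39B at -0.39. Of 26 hnRNP proteins, HNRNPDL was lower at -0.26, and PCBP1 at 0.26 and RALY at 0.24 were the 2 higher genes in the authors' deposited table. Tissue-type regulators had 2 of 38, RBFOX2 at -0.24 and NOVA1 at -0.82. A separate list of nuclear-retained RNAs had 0 of 6 in the table.

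**Figure D5:**
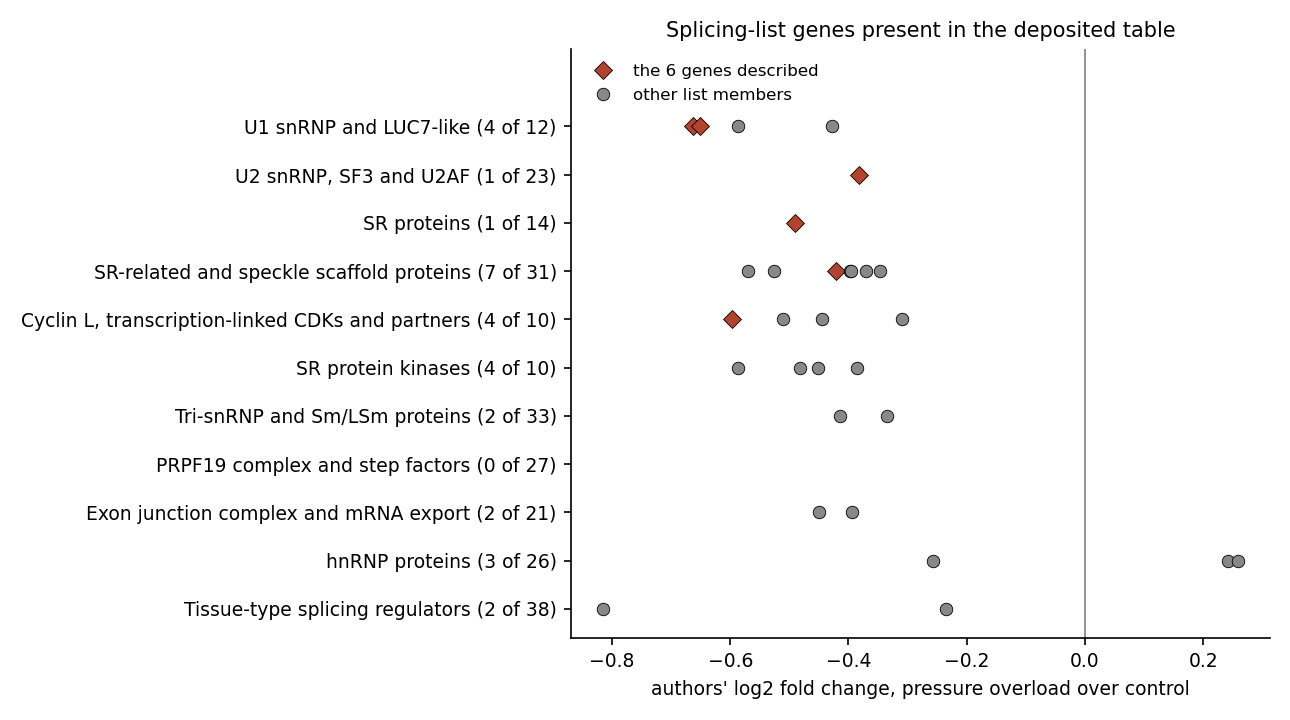
Log2 fold change, pressure overload over control, from the authors' deposited table (horizontal axis) for each splicing-list gene present, by list. Diamonds are the 6 genes described, circles are other list members, and brackets give how many of each list are in the table. All but PCBP1 and RALY, of the hnRNP list, lie to the left of 0.

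The 24 other splicing genes lay between the members and all rows in their median contrast between the replicate sets. Their log2 difference, pressure overload minus control, had a median of -0.72 in replicates 4 to 6 and -0.14 in replicates 1 to 3. The members' medians were -0.96 for replicates 4 to 6 and -0.16 for replicates 1 to 3, and those of all 512 rows were -0.59 for replicates 4 to 6 and -0.15 for replicates 1 to 3. The median interaction was -0.53 for the 24, -0.79 for the members and -0.33 for all rows. It was negative for 22 of the 24, beside 71.1% of all rows. The exceptions were HNRNPDL, with an interaction of 0.15, and PCBP1, with 0.24, and RALY was near 0 at -0.04. For HNRNPDL the log2 difference was -0.18 among replicates 4 to 6 and -0.33 among replicates 1 to 3. For PCBP1 it was 0.38 among replicates 4 to 6 and 0.14 among replicates 1 to 3, and for RALY 0.22 among replicates 4 to 6 and 0.26 among replicates 1 to 3. Their r with the member mean was -0.12 for HNRNPDL, -0.79 for PCBP1 and 0.28 for RALY.

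Beyond the overlaps given above, the members were compared in RefSeq only by chromosome, span and number of transcripts. They lay on 5 chromosomes, with spans from 15.9 kb for SNRNP70 to 63.1 kb for SF3B1. Their median span was 23.6 kb, beside 36.4 kb for the 490 of 516 rows that matched a RefSeq gene. LUC7L3 had the most RefSeq transcripts, 13, and SNRNP70 and SRSF11 had 1 each.

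Of 95 markers of cell types that heart tissue can hold, 2 were in the table. KDR, an endothelial receptor, was at 149.7 ± 35.5 CPM in pressure overload and 101.0 ± 27.5 CPM in controls. MYL4, the atrial light chain, was at 9.35 ± 4.78 CPM in pressure overload and 24.9 ± 10.4 CPM in controls (SD, n = 6 each). Of 23 genes of acute handling and immediate stress, 5 were in the table, with ATF3, NR4A1, NR4A3 and GADD45A higher and DUSP1 lower in pressure overload. Their summed level was 185.1 to 450.1 CPM in pressure overload, with a median of 286.2 CPM, against 127.7 to 313.9 CPM in controls, with a median of 172.8 CPM. Pressure overload replicate 3, the library highest for all 6 members, also had the highest sum, while control replicate 5 had 158.4 CPM. Much of the sum in pressure overload replicate 3 was NR4A3, at 237.1 CPM, against at most 78.6 CPM in the rest of its group. In that library DUSP1 was also highest of its group, at 58.2 CPM, ATF3 and NR4A1 were not, and GADD45A was lowest, at 52.1 CPM. The part of these genes or cells in the members' values was not tested.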

How the data were processed

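Poly-A RNA of pig heart was sequenced in 12 libraries, grouped by the group label. Libraries were made with a directional kit, per the labels' protocols. The submitters' processing notes name the build Sscrofa11.1, the aligner STAR 2.7.2b, the counter featureCounts from Subread 1.5.3, and FastQC, SAMtools 1.5 and Trim Galore 0.4.5. Not given in the sources used here are the annotation, the strand setting, the handling of multi-mapping reads and any rescaling of libraries. The authors deposited a single table with CPM values per library, mean CPM per group, a log2 fold change and mean log2 CPM, a likelihood-ratio statistic (a score), and p-values before and after adjustment, per the file headers. The table is partial: the largest unadjusted p-value in the authors' deposited table is 0.04997.

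The 6 members and all lists were chosen with earlier results of these data known. Genes named are the members, every splicing-list gene in the table and the 5 other rows closest to the member mean. The deposited CPM values were analysed on the log2(CPM + 1) scale using limma 3.58.1 (R 4.3.3), with a trend, for the 512 rows with at least 1 CPM in at least 6 libraries. This scale understates differences of low rows. Adjusted p-values are Benjamini-Hochberg over the 512 rows. Single genes and correlations were tested with exact permutations in Python 3.11.15 with SciPy 1.17.1. Library sizes were searched between 18 and 36 M reads. At the sizes found, 95.8% of the values of at most 5000 reads came out whole (tolerance 0.02 reads), so no count model was fitted. No 2 libraries were identical. Replicate numbers were not taken to pair the libraries, and the closing section gives the check that was made. The fit and the size search were tested on simulated data. The simulated sizes lay inside the range searched, so that test could not show a size outside it. Pseudocounts, the filter, 2 rescalings, each library left out, replicate sets and a replicate block were tried as alternatives. Gene positions and overlaps are from RefSeq on Sscrofa11.1.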

Additional observations from a re-analysis of the deposited data

Results flagged for a closer look

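Control replicate 5 stood far from the other 5 controls for 2 of the 6 genes. SRRM2 was at 574.6 CPM in it, and the gap to the next control was 0.662 of the range of the group, above Dixon's limit for a group of this size. SRSF11 was at 186.3 CPM in the same library, with a gap of 0.658 of the range. Of the 12 combinations of gene and group tested, 2 passed this limit. Chance gives about 1 in 20, and the 6 genes vary together, so the 12 are not independent. Without this library the members' median log2 difference was -0.44, beside -0.54 with it. The sample title of control replicate 5 begins with V, and every other title begins with P. What the letter stands for is not known here.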

How the results depend on the processing

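Of 316 alternative values computed, 288 kept their direction and stayed within the replicate spread, 27 moved by more and 1 reversed, and in none did a member's interaction pass limma's adjusted 0.05. The members' median log2 difference of -0.54 became -0.22 with median-of-ratios rescaling, whose factors come from the mostly lower listed rows and so build in an upward shift, -0.96 within replicates 4 to 6 and -0.16 within replicates 1 to 3. SRRM2 reversed within replicates 1 to 3, at 0.0018 ± 0.20 (SE). Leaving out 1 library at a time gave medians from -0.67 to -0.44 for the difference and from -0.93 to -0.59 for the interaction, whose median was -0.43 with median-of-ratios rescaling. The members' median r over group-centred libraries was 0.704 with median-of-ratios and 0.786 with upper-quartile rescaling, 0.798 to 0.912 with 1 library left out, and 0.649 without pressure overload replicate 3 and control replicate 5, an alternative chosen after seeing the data. The median r was 0.743 with median-of-ratios and 0.825 with upper-quartile rescaling within pressure overload, and 0.695 and 0.741 within controls. With the 2 farthest libraries left out it was 0.665 in pressure overload and 0.144 in controls. The replicate block and the replicate set as a covariate left the median difference at -0.54. In this balanced layout neither can change it, so they are no check on it, although they are counted among the 288. Deviations of libraries with the same number correlated by -0.09 to 0.23, and the numbers were not taken to pair them. For replicates 1 and 2 the control of the same number was the closest (r = 0.22 and 0.23), so this check cannot exclude pairing. The cause of the movements between the alternatives was not tested. At the library sizes found, each value of these genes would rest on at least 1300 reads. Almost all of these counts came out even, so the true sizes and counts are probably smaller by a common factor.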

Other observations

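GLUD1, a mitochondrial glutamate dehydrogenase chosen after its values were seen, was the row most opposite to the 6 genes over the 12 group-centred libraries, with r = -0.96 with their mean. Its log2 difference, pressure overload minus control, was 0.25 ± 0.10 (SE, n = 6 each). Its means were 168.0 ± 15.9 CPM in pressure overload and 141.3 ± 14.6 CPM in controls (SD, n = 6 each).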
